A study of Gallus gallus with 12 samples.

Results

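The regions described here are the open chromatin regions of a 2 Mb stretch of chicken chromosome 10, from 16 to 18 Mb, in embryonic eye tissue. The stretch was selected on list membership itself, because its first 0.5 Mb holds many regions found in dorsal retina alone and its last 0.5 Mb holds many found in the optic fissure margin (OFM) alone. All peaks of the 4 deposited peak lists whose start lies in the stretch were taken, and peaks that overlapped by at least 1 bp were merged. This gave 331 regions from 1058 peaks, of 127749 regions in the whole series. Of these, 85 lie in the first 0.5 Mb (16 to 16.5 Mb), 56 in the second, 104 in the third and 86 in the last (17.5 to 18 Mb). No merged region reached across a border of the stretch.

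The study profiled wildtype hy-line chicken embryos at Hamburger-Hamilton (HH) stages 30 and 34 by omni-ATAC-seq, in which the transposase Tn5 inserts adapters into accessible DNA. There are 4 groups with 3 libraries each, namely OFM at HH30, OFM at HH34, dorsal retina at HH30 and dorsal retina at HH34. Each library was made from 50000 cells of tissue pooled from 10 embryos, so single embryos cannot be told apart. Peaks were called jointly over the libraries of a group, per the labels, so the data are 4 lists with no value per replicate. Per the labels the tissue was dissected by hand, and its identity was not checked against marker genes, since no gene was placed on a peak.

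The optic fissure is a transient cleft on the ventral side of the optic cup, and its margins meet and fuse as the eye develops. Dorsal retina belongs to the same neural tissue and lies away from this ventral cleft. Dorsal and ventral retina are known to differ in transcription factors and in enzymes of retinoic acid metabolism. Sites such as enhancers and promoters are open where regulatory proteins displace nucleosomes, and several enhancers of a gene often lie close together.

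All values here describe joint lists without replicate error. No test between groups was run, no p-value is given, and regions are not replicates of a condition. List membership is what the stretch was chosen for, so the counts of regions restricted to a tissue are a description and support nothing. Fewer cells with an open site and a weaker signal per cell cannot be told apart in bulk tissue. The lists hold 108689 peaks (OFM HH30), 106170 (dorsal HH30), 105103 (OFM HH34) and 101452 (dorsal HH34), of which 277, 274, 254 and 253 lie in the stretch. Peaks are ranked within their list by the authors' area score, and rank 1 is the largest score.

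No gene was placed in the stretch. The submitters' processing notes name the chicken build GRCg6a (galGal6), while the gene table used here is of GRCg7b. In that table ALDH1A2, ALDH1A3, CRABP1 and NR2F2 are the 4 genes on chromosome 10 among 40 listed for retinoic acid metabolism, dorsoventral eye patterning and fissure closure. ALDH1A2 and ALDH1A3 encode retinaldehyde dehydrogenases, which make retinoic acid, CRABP1 encodes a cellular retinoic acid binding protein, and NR2F2 encodes an orphan nuclear receptor. The table lists NR2F2 between MCTP2 and FAM169B, and ALDH1A3 between ASB7 and LRRK1. Whether any of these genes lies in or beside the stretch was not analysed here, and no base sequence of the build was used.

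Across the stretch, 180 regions (54.4%) had a peak in all 4 lists, against 60.6% of the regions of the series. Both dorsal lists alone held 21 regions (6.34%), where the series has 1.22%. Both OFM lists alone held 14 (4.23%), where the series has 2.22%. Both HH30 lists alone held 16 regions (4.83%, series 5.69%), and both HH34 lists alone held 10 (3.02%, series 4.79%). The mixed pairs were almost empty, with 1 region in dorsal HH30 and OFM HH34 (series 0.247%) and 0 in the opposite pair (series 0.0986%). A further 6 regions were missing from dorsal HH30 alone (series 1.06%) and 8 from OFM HH30 alone (series 3.5%).

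The 2 kinds of tissue-restricted regions lay at opposite ends. The first 0.5 Mb held 18 of the 21 dorsal regions and 0 OFM regions. The last 0.5 Mb held 12 of the 14 OFM regions and 0 dorsal regions. The second part had 1 region of each tissue, and the third part had 1 OFM and 2 dorsal regions. The 0 for OFM in the first part depends on the overlap used: it became 10 with a reciprocal overlap of 50% and 5 with summits at most 200 bp apart. When each list was cut to its upper 50% and merged again, the counts were 7 dorsal and 2 OFM regions. Only 3 of the 18 and 1 of the 12 lay in the upper 50% of both their lists. The others in these counts are regions whose peaks in the other tissue fell below the cut. As a share of the regions there, the dorsal pair made up 21.2% of the first part and the OFM pair 14.0% of the last part.

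**Figure D1:**
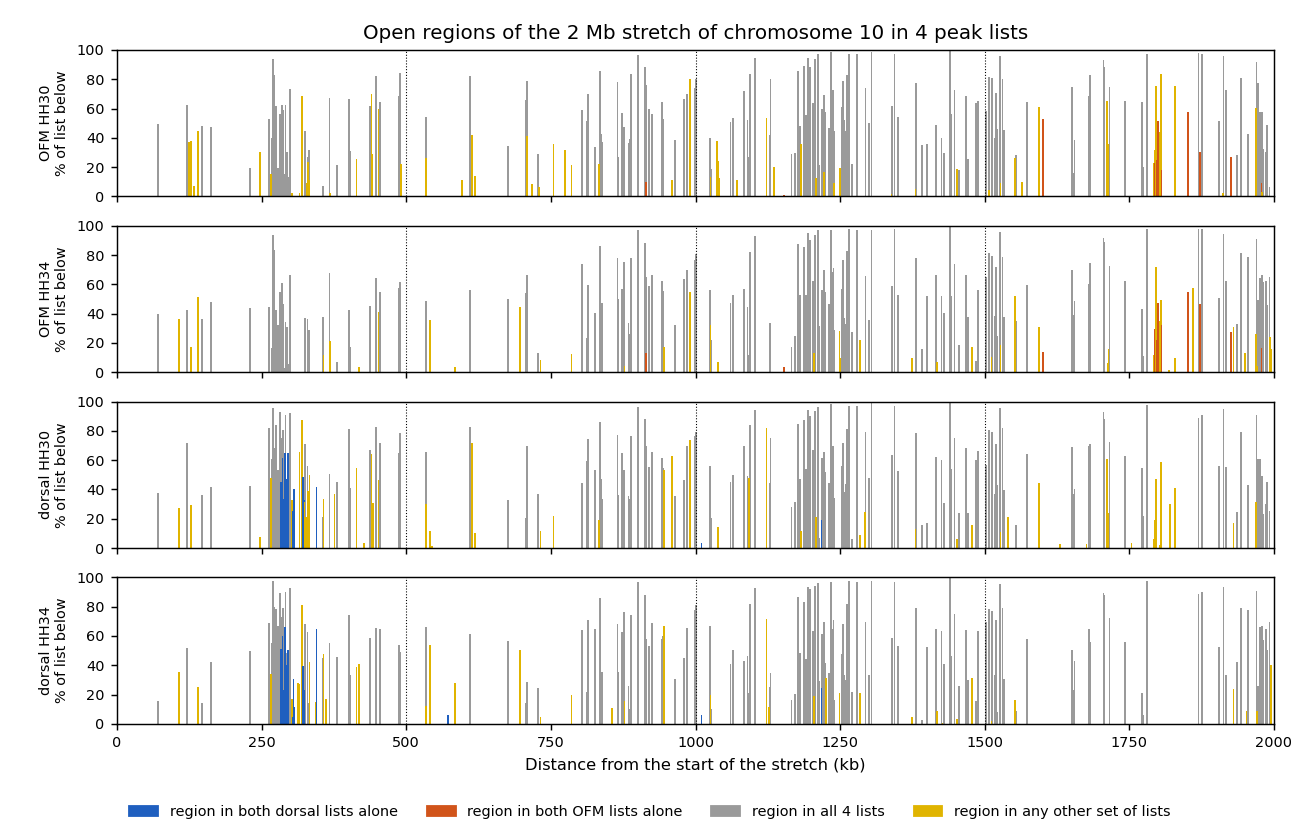
Each bar is a region with a peak in the list named at the left; the x axis gives the distance from the start of the stretch in kb, and the height is the percentage of that list with a lower area score than the region's best peak. Bars have the width of the merged region, widened to at least 3 kb, and dotted lines separate the 4 parts of 500 kb. The 18 regions of both dorsal lists alone stand together in the first part, and 12 regions of both OFM lists alone stand in the last part.

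At each single stage the same ends stood out, and these counts include the regions for which the stretch was chosen. At HH30 the first part held 27 regions with a dorsal peak and no OFM peak (31.8%, series 7.54%) and 6 with an OFM peak and no dorsal peak (7.06%, series 10.1%). With a reciprocal overlap of 50% the count of 6 became 26. With each list cut to its upper 50% and merged again, the count of 27 became 9, and these need not be among the 27. At HH34 these numbers were 27 (31.8%, series 6.33%) and 4 (4.71%, series 8.76%). In the last part the HH30 lists gave 18 OFM regions without a dorsal peak (20.9%) and 7 dorsal regions without an OFM peak (8.14%). The HH34 lists gave 29 (33.7%) and 1 there. In the last part the OFM count was thus larger at HH34 than at HH30, and 11 regions were missing from dorsal HH34 alone (12.8%, series 4.49%). In the first part, 6 regions were missing from OFM HH34 alone (7.06%, series 1.17%).

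Covered length sums the same peaks for which the stretch was selected, so its direction is largely fixed by that choice and is given as a description. In the first part, dorsal peaks covered 41.6 kb at HH30 and OFM peaks 25.4 kb, a ratio of 1.63. At HH34 they covered 35.5 kb and 18.3 kb, a ratio of 1.93. The counts were 77 dorsal and 64 OFM peaks at HH30, and 67 against 49 at the later stage. They differed in mean width as well, at 540 bp for dorsal and 397 bp for OFM peaks at HH30. At HH34 the mean widths were 529 bp and 374 bp. In the last part, OFM peaks covered 38.1 kb against 29.2 kb at HH30 (1.30 times) and 37.1 kb against 25.9 kb at HH34 (1.43 times). There were 71 OFM against 63 dorsal peaks at HH30 in the last part, and 77 against 49 at the later stage. Their mean widths were 537 bp and 464 bp at HH30, and 482 bp and 529 bp at the later stage. Over the whole lists the dorsal to OFM ratio of covered length was 0.989 at HH30 and 0.985 at HH34.

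The stretch was chosen for these counts, so its place among the other windows of the genome is largely fixed by that choice. Both ends ranked near the top. Among 2099 windows of 0.5 Mb that hold a region, 0 had more regions in both dorsal lists alone than the first part, and 1 other window had as many. For both OFM lists alone, 2 windows had more than the last part. Windows with 0 such regions were frequent, at 58.2% for the dorsal pair and 34.7% for the OFM pair. Counts of 10 or more were reached by 5 windows for each tissue. Within 3 windows of each other, the ends of this stretch were the 1 pairing of such a dorsal window with such an OFM window. Just outside, the window from 15.5 to 16 Mb held 7 OFM and 2 dorsal regions, and the window from 18 to 18.5 Mb held 3 and 0. The window from 19 to 19.5 Mb held 9 dorsal and 0 OFM regions, so windows that lean to 1 tissue were found on both sides of the stretch.

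**Figure D2:**
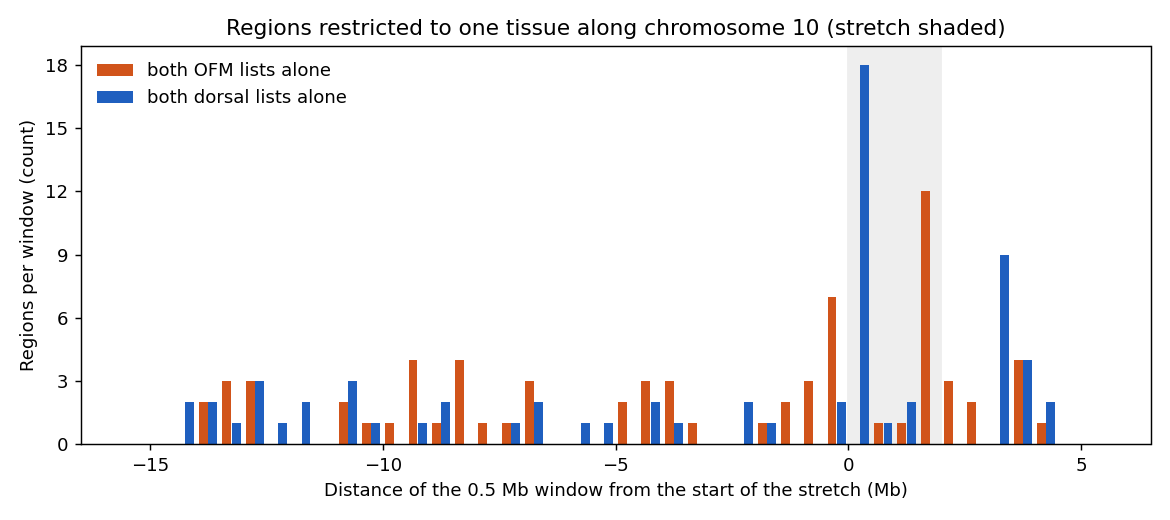
Bars give the number of regions restricted to OFM at both stages and restricted to dorsal retina at both stages in each 0.5 Mb window of chromosome 10; the x axis is the distance of the window from the start of the stretch in Mb, and the stretch is shaded. The dorsal bar of 18 and the OFM bar of 12 stand at the 2 ends of the stretch, with a dorsal bar of 9 further on.

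The dorsal cluster spans 61.6 kb, from position 16283441 to 16345036. It holds 39 regions, of which 18 were in both dorsal lists alone, 10 in all 4 lists and 4 missing from OFM HH34 alone. A further 3 were in dorsal HH30 alone, 2 in dorsal HH34 alone, 1 in both HH30 lists alone and 1 in OFM HH30 alone. Dorsal peaks touched 36 of the 39 regions at HH30 and 34 at HH34. OFM peaks touched 16 at HH30 (41.0%) and 10 at HH34 (25.6%).

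When the 18 regions were divided wherever they lay more than 5 kb apart, they fell into groups of 10, 4, 3 and 1. The group of 10 lies between 16283441 and 16296088, within 12.6 kb. All 15 regions of that interval had a peak in both dorsal lists, and dorsal peaks covered 7585 bp of it at HH30 and 7324 bp at HH34. OFM peaks, 6 at each stage, covered 2013 bp and 1533 bp. The group of 4, from 16303831 to 16306192, and the group of 3, from 16321434 to 16323681, hold 4 and 3 dorsal peaks at each stage and 0 OFM peaks. The single region, from 16344287 to 16345036, had no OFM peak within 11 kb, since the nearest was 11084 bp off at HH30 and 11064 bp off in the HH34 list.

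**Figure D3:**
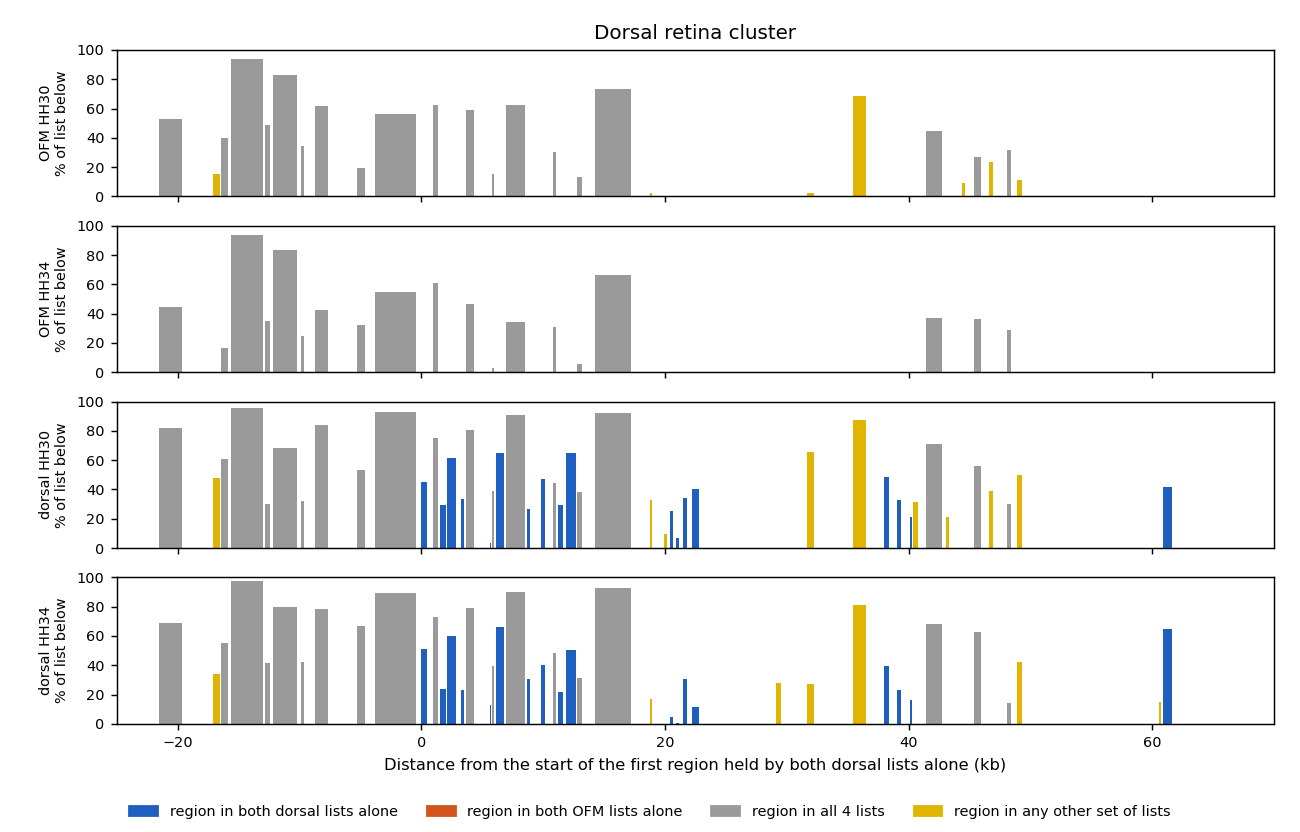
The 4 panels show the lists, and the x axis is the distance in kb from the start of the first region held by both dorsal lists alone. Bar width is the width of the merged region (drawn at least 0.15 kb wide) and bar height the percentage of the list with a lower area score. The dorsal panels hold 18 blue bars that have no counterpart in the OFM panels, and most broad grey bars between and before them stand lower in the OFM panels. The broad grey bar at 16271248 to 16273204 stands higher in the OFM panels.

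The 18 dorsal regions were of middle and low rank in their own lists. Their ranks ran from 37145 to 102374 at HH30 (median 70466.5) and from 34591 to 100915 at HH34 (median 73987). Only 3 lay in the upper 50% of the list at HH30 and 5 at HH34, and these 3 were in the upper 50% at both stages. The median −log10 q at the summit, as deposited by the authors, was 5.27 at HH30 and 5.10 at HH34, below the list medians of 7.51 and 7.55. By percentage of the list, 13 of the 18 stood lower at HH34 than at HH30 and 5 stood higher (53.9% higher among such regions of the series), which is a place in a list and no measure of change in openness. Summits at the 2 stages lay a median of 6.5 bp apart, and 14 of 18 lay within 50 bp. The median width of the regions was 393 bp, against 255 bp for regions of both dorsal lists alone in the series.

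The best placed of them lay at positions 16289549 to 16290191 and ranked 37353 at HH30 and 34591 at HH34. The −log10 q there was 6.89 and 7.88, and the summits lay at 16289960 and 16289961. The next, at 16285544 to 16286276, ranked 40823 and 40843. The third, at 16295285 to 16296088, was the widest at 804 bp and ranked 37145 and 50664. These 3 regions form the upper end of the group, and each lay in the group of 10.

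Behind them came 16283441 to 16283882, with ranks 58423 and 49433, and 16293224 to 16293583, with ranks 55997 and 60538. The sixth, at 16321434 to 16321859 in the group of 3, ranked 54338 and 61386 with −log10 q of 8.37 and 7.55. The seventh was the single region at 16344287 to 16345036, which ranked 62026 at HH30 and 36004 at HH34. It was the region that moved furthest up the list between the stages, from 58.4% down the list to 35.5% down the list. The eighth, at 16304927 to 16305247, ranked 69978 and 70731. The ninth, at 16284959 to 16285414, ranked 75191 and 77243. The last of the 10, at 16292070 to 16292390, ranked 77833 and 70113. These 3 lay outside the upper 50% of both lists. The remaining 8 had worse ranks from 78074 to 102374.

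OFM peaks were often close by. The nearest OFM peak lay a median of 727.5 bp away at HH30 and 733 bp at HH34. For the best placed region these distances were 135 bp and 138 bp. The dorsal regions in the group of 10 thus stand as separate peaks between sites that both tissues hold.

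Those shared sites also ranked lower in OFM. To compare ranks on lists of equal length, each region held by all 4 lists was given its percentile among the 77405 such regions of the series in each list, where 100 is the largest area score. A difference is OFM minus dorsal in percentile points. Over the 34 such regions of the first part, the median percentile was 36.0 in OFM and 50.5 in dorsal retina at HH30, and 26.8 and 44.0 at HH34. The median difference was −12.08 points at HH30 and −17.48 at HH34, against medians of −0.02 and −0.16 over the series. At both stages 24 of the 34 (70.6%) ranked lower in OFM, against 38.5% in the series. OFM ranked lower by at least 20 points at both stages in 10 of them (29.4%, series 0.752%). Each list counts there by its best peak alone, also where OFM had more peaks in the region than dorsal retina (given below). That count of 10 was not repeated under another ranking. Among 1540 windows with at least 20 such regions, 6 had a lower median at HH30 and 0 at HH34. Many of these shared regions lie among or beside the dorsal regions for which the part was chosen, so this place is not independent of that choice.

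Inside the 61.6 kb of the dorsal cluster, 9 of 10 shared regions ranked lower in OFM at both stages, with median differences of −21.77 and −29.14 points. The 24 shared regions of the first part outside it had medians of −5.87 and −12.13, and 15 of them ranked lower in OFM at both stages. The first 250 kb, before the cluster, hold 5 shared regions, whose medians were 7.10 at HH30 and 3.26 at HH34. Of these 5, 3 ranked higher in OFM at both stages and 2 lower. The few regions of the first 250 kb were thus mixed, but lower OFM ranks were not confined to the cluster. Between the first 250 kb and the cluster, differences reached −48.13 and −45.34 points at 16279599 to 16283022, directly before the cluster. At 16261887 to 16263803 the differences were −37.63 and −31.02 points. They were −29.34 and −44.76 at 16274694 to 16275743, and −30.55 and −40.52 at 16278109 to 16278825. The region at 16271248 to 16273204 there ranked higher in OFM at both stages (19.30 and 3.81), and those starting at 16270576 and 16273560 changed sign between stages.

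**Figure D4:**
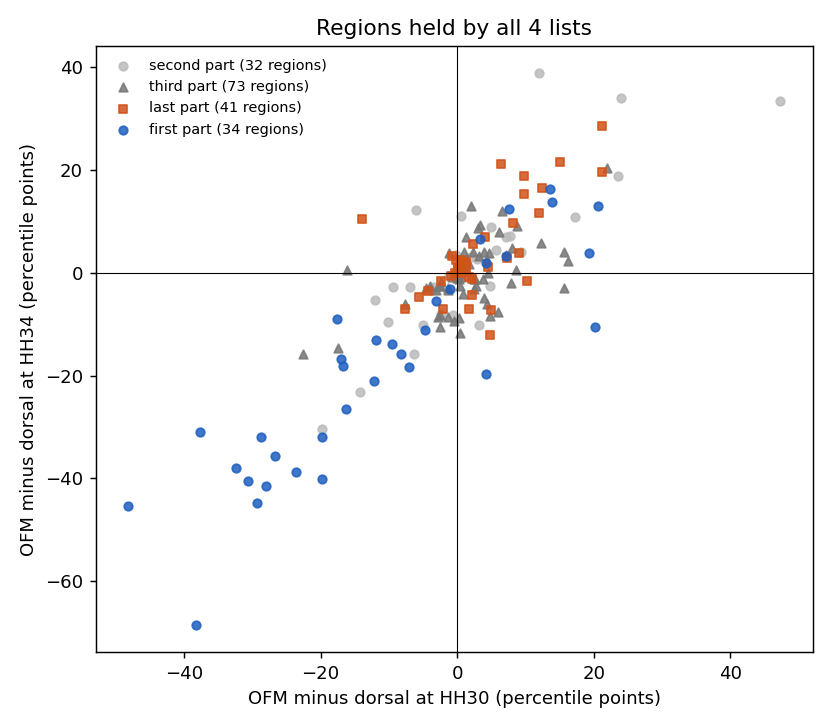
Each point is 1 of the 180 regions held by all 4 lists, with the OFM minus dorsal difference in percentile points at HH30 on the x axis and at HH34 on the y axis. Blue points of the first part reach down to −48.13 and −68.45, while most points of the other parts lie near 0.

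The region with the largest drop by the smaller of its 2 differences lay at 16279599 to 16283022, directly before the dorsal cluster. Its rank was 47341 in OFM and 7509 in dorsal retina at HH30, and 47760 and 10864 at HH34. The merged region is 3424 bp wide, and a single dorsal peak of 3416 bp filled it at HH30, where the OFM list had 4 peaks with the best one 723 bp wide. The differences were −48.13 and −45.34 points. Summits of the best peaks lay up to 2948 bp apart, so the best peaks of the 4 lists are not all at the same place within it.

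A second such region, at 16290367 to 16291941, lay in the middle of the group of 10. It ranked 41207 in OFM and 9887 in dorsal retina at HH30, and 68970 and 9975 at HH34. At HH30 the best peak was 1562 bp wide in dorsal retina and 630 bp in OFM. At HH34 these widths were 1575 bp and 226 bp. The difference of −68.45 points at HH34 was the lowest among the 180 shared regions of the stretch. The third, at 16324904 to 16326220, ranked 60187 against 30609 at HH30 and 66238 against 32310 at HH34, with OFM given first.

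The number of peaks within a shared region also differed between tissues in the first part. There, 6 of the 34 shared regions had more OFM than dorsal peaks at HH30 (series 2.23%) and 1 had fewer (series 3.06%). All 6 are among the 10 regions that ranked at least 20 points lower in OFM at both stages. Their HH30 ranks set the best of several OFM peaks against the best of fewer dorsal peaks. How far this sets the rank differences was not tested. At HH34 these were 5 (series 2.83%) and 0 (series 2.37%). In the last part, 0 of the 41 shared regions had more OFM than dorsal peaks at either stage (series 2.23% at HH30 and 2.83% at HH34). Fewer OFM peaks were seen in 2 at HH30 (series 3.06%) and in 1 at HH34 (series 2.37%). With so few regions, these counts lie near the series shares.

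By the worst of the 4 ranks, the strongest shared region of the first part lay at 16267802 to 16270412. It differed by −3.03 points at HH30 and −5.45 at HH34. It ranked 7056 in OFM and 4697 in dorsal retina at HH30, and 6558 and 2328 at HH34, and its best summit lay at 16269258 in all 4 lists. The second, at 16271248 to 16273204, ranked 18329 in OFM and 33837 in dorsal retina at HH30, and 17392 and 20353 at HH34, a difference of 19.30 and 3.81 points. The third, at 16297672 to 16300682, lies just after the group of 10. It ranked 29309 in OFM and 8038 in dorsal retina at HH30, and 35691 and 7186 at HH34, a difference of −26.60 and −35.71 points. The 3 thus did not all lean to the same tissue. Summits of the best peaks lay up to 730 bp apart in the second and 858 bp in the third, so these peaks are not all at the same place.

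Shared regions that ranked higher in OFM at both stages numbered 8 of 34 in the first part (23.5%, series 35.8%). Of the 8, 7 lay outside the span of the dorsal cluster, as did 24 of all 34 shared regions. The 3 with the largest difference were at 16147289 to 16147686 (13.81 and 13.79 points), 16070530 to 16070897 (13.65 and 16.31) and 16366894 to 16367483 (20.61 and 12.92). The last of these ranked 35561 in OFM and 52642 in dorsal retina at HH30, and 34131 and 45235 at HH34. The first and second lie before the dorsal cluster and the third lies after it.

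In the stretch, the longest run of neighbouring regions without an OFM HH34 peak also lay in the dorsal cluster. It counts 13 regions, from 16302199 to 16324239. The OFM HH34 list has no peak for 24.7 kb there, from 16300594 to 16325315. The run includes 7 regions of both dorsal lists alone and 3 missing from OFM HH34 alone. In the whole series 2 runs were at least this long, itself included, and 21.3% of all regions lack an OFM HH34 peak. Runs were examined after the values had been seen, and this one includes regions for which the first part was chosen, so its place is partly fixed.

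One member of that run was a strong site missing from a single list, and it too was chosen after its values were seen. The region at 16318908 to 16319916 ranked 13648 in dorsal retina and 34456 in OFM at HH30, and 19364 in dorsal retina at HH34. The OFM list at HH34 had no peak within 5 kb, the nearest being 5399 bp away.

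The last part was arranged differently. Its 12 OFM regions spread over 378.7 kb, from 17599835 to 17978493, among 58 regions. Of these 58, 23 were in all 4 lists and 9 were missing from dorsal HH34 alone. OFM peaks touched 46 of them at HH30 and 51 at HH34 (87.9%), and dorsal peaks touched 39 at HH30 (67.2%) and 26 at HH34 (44.8%). Divided at gaps above 5 kb, the 12 regions fell into 6 groups, of 1, 6, 1, 2, 1 and 1 regions. The distance from the end of the dorsal cluster to the first of them is 1254.8 kb.

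The group of 6 lies between 17794268 and 17805690, within 11.4 kb. It holds 10 regions with 9 OFM peaks and 4 dorsal peaks at HH30, and with 11 OFM peaks and 0 dorsal peaks at HH34. OFM peaks covered 3469 bp at HH30 and 3275 bp at HH34, and dorsal peaks 1218 bp at HH30.

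**Figure D5:**
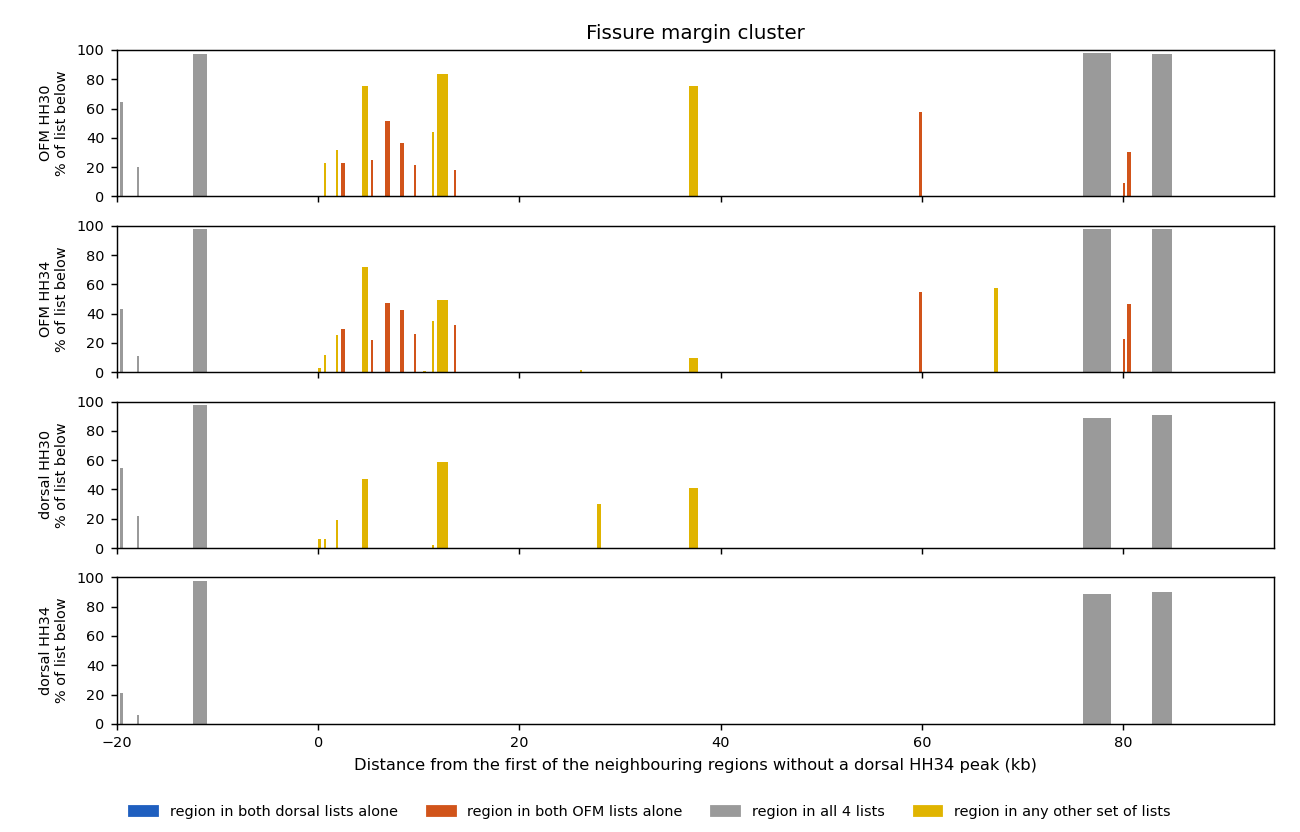
The 4 panels show the lists, and the x axis is the distance in kb from the first of 18 neighbouring regions without a dorsal HH34 peak. Bar width is the width of the merged region (at least 0.2 kb) and bar height the percentage of the list with a lower area score. The dorsal HH34 panel is empty between the strong grey bar on the left and the pair of grey bars on the right, while both OFM panels hold bars there.

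The interval around that group is where the dorsal HH34 list has no peak. A run of 18 neighbouring regions, from 17791988 to 17859589, has no dorsal HH34 peak, and the gap between the flanking dorsal HH34 peaks is 87.5 kb, from 17780905 to 17868378. This is the longest such run in the series, where the median is 1 and 23.7% of all regions lack a dorsal HH34 peak. That place is partly fixed, since the run includes regions for which this end was chosen and was examined after its values had been seen. The run shortened to 6 when each list was cut to its upper 50%. The run holds 13 OFM peaks at HH30, 18 OFM peaks at HH34 and 9 dorsal peaks at HH30. By membership it consists of 7 regions of both OFM lists alone, 6 missing from dorsal HH34 alone, 3 of OFM HH34 alone, 1 of dorsal HH30 alone and 1 of dorsal HH30 with OFM HH34. The dorsal HH30 list was not empty there, so the runs of both dorsal lists differ. The longest run without dorsal HH30 peaks in the stretch counted 5 regions, and 151 runs of the series were at least that long.

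The OFM regions of the last part were of low rank as well. Their ranks ran from 45695 to 98827 at HH30 (median 80558) and from 47598 to 90363 at HH34 (median 75102.5). The upper 50% of the list held 3 of them at HH30 and 1 at HH34. The median −log10 q was 5.79 at HH30 and 5.78 at HH34, and the list medians were 7.84 and 7.61. By percentage of the list, 8 of the 12 stood higher at HH34 and 4 stood lower, and 30.8% of such regions of the series stood higher. The difference from the dorsal cluster was not tested. Summits at the 2 stages lay a median of 2.5 bp apart, and 11 of 12 lay within 50 bp. Their median width was 352 bp, against 265 bp for regions of both OFM lists alone in the series.

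The best placed lay alone at 17851660 to 17852034 and ranked 45695 at HH30 and 47598 at HH34, with −log10 q of 9.91 and 9.28. Its summit was at 17851948 in both lists, with the nearest dorsal peak at a distance of 16339 bp (HH30) and 16344 bp (HH34). The second, at 17798600 to 17799123 in the group of 6, ranked 52804 and 55457. Its summit was at 17798673 in both lists, with a dorsal peak at a distance of 1886 bp (HH30) and 17695 bp (HH34). The third, at 17800146 to 17800474, ranked 69153 and 60761.

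The fourth, at 17872367 to 17872770, ranked 76049 at HH30 and 55885 at HH34. The fifth, at 17925492 to 17925790, ranked 79175 and 76220. The sixth, at 17797225 to 17797383, ranked 81941 and 81705. The fifth lies alone, while the sixth to ninth belong to the group of 6. The seventh, at 17794268 to 17794667, ranked 84096 and 73985. The eighth, at 17801479 to 17801666, ranked 85531 and 77348. The ninth, at 17805465 to 17805690, ranked 88882 and 71539. The next, at 17599835 to 17600442, was the widest at 608 bp and went furthest down the list, from rank 51477 at HH30 to 90363 at HH34. The other two had worse ranks of 98731 and 98827. Over the 12 regions the median distance to a dorsal peak was 2042 bp at HH30 and 16332 bp at HH34. The OFM regions of the last part therefore stood further from peaks of the other tissue than the dorsal regions of the first part, most of all at HH34. Regions of any kind were sparser there, with 58 in 378.7 kb against 39 in the 61.6 kb of the dorsal cluster. The distances were not adjusted for this spacing.

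The 11 regions of the last part that were missing from dorsal HH34 alone had a median place of 56.4% down the list in OFM and 75.8% in dorsal retina at HH30. In OFM at HH34 it was 74.9%, against 71.5% for the 12 OFM regions and 35.4% for the shared regions there. The 3 with the best OFM ranks at HH30 were picked after their values were seen and do not stand for the others. The region at 17803774 to 17804867 ranked 18056 in OFM and 43517 in dorsal retina at HH30, and 52958 in OFM at HH34. The region at 17796300 to 17796903 ranked 26963 and 56320 at HH30, and 29573 in OFM at HH34. The region at 17828828 to 17829749 ranked 26574 and 63008 at HH30, and 94725 in OFM at HH34. All 3 lie in the run without dorsal HH34 peaks.

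Shared regions of the last part differed less between tissues. Over its 41 regions held by all 4 lists, the median difference was 1.67 points at HH30 and 1.05 at HH34, with a range from −13.86 to 21.21 at HH30 and from −12.18 to 28.64 at HH34. At both stages 24 of 41 (58.5%) ranked higher in OFM, against 35.8% in the series, and 7 ranked lower. OFM ranked higher by at least 20 points at both stages in 1 region (2.44%, series 1.5%). The median percentile was 52.4 in OFM and 47.4 in dorsal retina at HH30, and 53.2 and 54.9 at HH34, so at HH34 the medians and the median difference point opposite ways. Of 1540 windows, 177 had a higher median at HH30 and 359 at HH34. The last part thus stands apart in which lists hold its regions, for which it was chosen, and much less in how its shared regions rank.

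The 3 strongest shared regions of the last part, by the worst of their 4 ranks, differed by at most 1.09 points. That choice favours regions ranked high in every list, so a small difference is largely fixed by it. The region at 17779563 to 17780906, which borders that interval on the left, ranked 2692 and 2502 at HH30 and 2359 and 2293 at HH34 in OFM and dorsal retina. Its summit lay at 17780202 in all 4 lists. The region at 17525491 to 17527046 ranked 4215 and 4365 at HH30 and 4202 and 4733 at HH34. The third, at 17911928 to 17913800, ranked 4712 and 5214, and 5775 and 6624.

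A pair of broad regions to the right of that interval differed by more, and they were chosen after their values were seen. The region at 17868036 to 17870782 ranked 2591 in OFM and 11912 in dorsal retina at HH30, and 2614 and 11701 at HH34, a difference of 11.93 and 11.67 points. One OFM peak of 2747 bp filled it at both stages, while the best dorsal peak measured 1411 bp and 1406 bp. The region at 17874912 to 17876807 ranked 3214 and 9569 at HH30, and 2538 and 10110 at HH34, a difference of 8.15 and 9.74 points. Its OFM peak was 1890 bp and 1891 bp wide at the 2 stages and its best dorsal peak 759 bp and 757 bp. Between them lie 2 of the 12 OFM regions, at 17871981 to 17872152 and at 17872367 to 17872770.

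The 3 shared regions of the last part that most favoured OFM lay at 17916719 to 17917303, 17972386 to 17973400 and 17681795 to 17682590. The first ranked 29765 in OFM and 47099 in dorsal retina at HH30, and 39832 and 67523 at HH34, a difference of 21.13 and 28.64 points. The second differed by 21.21 and 19.70 points and the third by 15.09 and 21.58. The 3 that most favoured dorsal retina lay at 17991691 to 17992371, 17904516 to 17904749 and 17975974 to 17976588. The first of these ranked 101806 in OFM and 79123 in dorsal retina at HH30, and 36840 and 31106 at HH34. The largest dorsal leaning of the last part by this measure was therefore −6.99 points, far from the −45.34 of the first part.

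The 2 middle parts served as the local comparison. Shared regions had median differences of 0.17 and 0.32 points in the second part and of 0.89 and −0.10 in the third, at HH30 and HH34. All 4 lists held 57.1% of the regions in the second part and 70.2% in the third, where the first part had 40.0% (95% Wilson interval 30.2% to 50.6%) and the last 47.7% (37.4% to 58.1%). The intervals cover counting error alone and treat neighbouring regions as independent, which they need not be. The outer parts were chosen for regions restricted to 1 tissue, so their lower shares are largely fixed by that choice. Differences of at least 20 points at both stages were seen in 2 shared regions of the second part (6.25%) and 1 of the third (1.37%). In each OFM was higher, where the series has 1.5%. The largest OFM leanings of the stretch lay in the second part, at up to 47.24 points at HH30 and 38.77 at HH34.

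Summits of most shared regions lay close together across the lists. The median spread of the 4 best summits was 11, 6, 10 and 9 bp in the 4 parts, against 10 bp in the series. They lay within 100 bp in 31 of 34, 29 of 32, 66 of 73 and 37 of 41 regions, where the series has 89.3%. The widest spreads were 2948, 468, 486 and 469 bp, and the 2948 bp belong to the region at 16279599 with the difference of −48.13 points at HH30.

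Sites that the 2 tissues shared at HH30 only numbered 4, 6, 5 and 1 over the 4 parts, which hold 85, 56, 104 and 86 regions. Those shared at HH34 only numbered 1, 3, 4 and 2. The series shares of these kinds are 5.69% and 4.79%, and no difference between parts was tested. The best placed of the 16 regions in both HH30 lists alone lay at 16439890 to 16440327 in the first part. It ranked 32737 in OFM and 37689 in dorsal retina, and the nearest HH34 peaks were 3109 bp (OFM) and 3094 bp (dorsal) away. The next were at 17711377 to 17711867 (38160 and 41449) and at 16613433 to 16614177 (63446 and 30028). Of the 10 regions in both HH34 lists alone, the best placed lay at 16696789 to 16697103 and ranked 58236 in OFM and 50258 in dorsal retina. It was followed by 17248769 to 17249116 and by 17994400 to 17995093.

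Regions of a single list made up the rest of the restricted sites. OFM HH30 alone held 21 regions, spread over the parts as 5, 5, 7 and 4, and dorsal HH30 alone held 14, as 7, 0, 2 and 5. OFM HH34 alone held 6, of which 5 lay in the last part, and dorsal HH34 alone held 9, of which 3 lay in the first part. In the series these kinds make up 6.70%, 2.57%, 1.80% and 3.85% of the regions.

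At the borders of the stretch, the first region inside lay at 16070530 to 16070897 and was held by all 4 lists. The last region outside, at 15998568 to 15998806, was held by both HH30 lists alone. On the other side, the last region inside, at 17994400 to 17995093, was held by both HH34 lists alone, and the next, at 18000079 to 18001860, by all 4 lists.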

How the data were processed

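Omni-ATAC-seq libraries (12 in 4 groups, 75 bp paired-end, per the labels, which state a least read number per library) were represented by 4 deposited peak lists. Per the labels, peaks were called jointly over the libraries of a group with Genrich. The submitters' processing notes name Genrich 0.6, Bowtie2 2.3.4.3, cutadapt 1.16, SAMtools 1.6, deepTools 3.5.0 and the build GRCg6a (galGal6). Settings, filters and any shift of Tn5 insertion sites are not given in the sources used here, and each can change peak width and number. Depth per library is unknown, so no interval that needs reads was computed.

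The lists have no header, and their columns were read in narrowPeak order. The area score, the −log10 p and the −log10 q at the summit are the authors' values as deposited, and they were used to rank or describe peaks within a list. A second deposited score, capped by the peak caller, was read only to check the column order. Percentiles were compared across lists only among regions held by all 4 lists, by the best peak of each list. For other regions, ranks or places in a list are given side by side, and the lists differ in length.

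Overlaps, ranks and counts were computed with Python 3.11.15, pandas 2.3.3 and numpy 2.4.6, and drawn with matplotlib 3.10.9. Merging was run on simulated regions that lay far apart, with no more than a single peak per list in each. There 100% of 20000 regions with 15 patterns were recovered, which those settings fixed in advance. Merging in dense clusters or with several peaks per list was not tested. The members, parts and lists were chosen with earlier results of these data known. Named regions followed a rule: per outer part, the regions of both lists of a tissue (the first 10 by the worse of their ranks, with position and both ranks, the rest by range), 3 per stage, and of the regions in all 4 lists the 3 strongest and the 3 with the largest difference in each direction. Exceptions are marked. Coordinates count from 1. Planned gene annotation and motif searches were not run because no genome of GRCg6a was used here, and 38 of 40 listed symbols were matched to the GRCg7b table for their chromosome alone. Peaks reached past the last gene of that table on 25 chromosomes.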

Additional observations from a re-analysis of the deposited data

How the results depend on the processing

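Over 26 results, 152 of 208 values under other settings kept their size and direction, and 4 reversed. A count or ratio was called moved beyond 1.5 times, a share outside its 95% Wilson interval and a median outside its 95% binomial interval. Shortening all lists to equal length, joining peaks up to 100 bp apart, ranking by −log10 q or −log10 p and averaging all peaks of a region moved none of the values computed under them. Ranking by −log10 q and by −log10 p gave the same values, so they count as 1 check. Averaging gives a list with several peaks in a region a rank no better than its best peak. It therefore does not address how peaks were split. In the figures that follow, counts of one stage are given for HH30 and HH34 in that order.

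Outer parts of 250 kb leave the dorsal cluster outside the first part by construction. The count of both dorsal lists alone became 0, that of dorsal without OFM 1 and 0, and that of OFM without dorsal at HH34 2. The median difference reversed to 7.10 and 3.26 points, and the ratio of covered length, dorsal over OFM, to 0.628 and 0.787. In the last part, dorsal without OFM at HH30 became 4 and the share in all 4 lists 37.3%. Borders 100 kb lower gave 4 regions of both OFM lists alone and 10 OFM regions without dorsal at HH34 in the first part, and 2 dorsal regions without OFM at HH34 in the last. Borders 100 kb higher also gave 2 there.

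A reciprocal overlap of 50%, which splits wide regions by construction, gave in the first part 10 regions of both OFM lists alone, 26 and 16 of OFM without dorsal, and a share in all 4 lists of 23.9%. In the last part it gave 1 region of both dorsal lists alone and 14 and 4 of dorsal without OFM. The 0 for OFM in the first part thus depends on the overlap used. With summits at most 200 bp apart, the first part had 5 regions of both OFM lists alone and 18 and 11 of OFM without dorsal, and the last part had 11 and 2 of dorsal without OFM. The counts of 18 dorsal and 12 OFM regions stayed within 1.5 times under both.

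When each list was cut to its upper 50% and merged again, 156 regions were left, 76 of them in all 4 lists. A region can count as restricted there because its peak in another list fell below the cut. The first part had 7 of both dorsal lists alone, 9 and 17 of dorsal without OFM, 1 and 2 of OFM without dorsal, 28.1% in all 4 lists and a covered ratio at HH34 of 3.21. The last part had 2 of both OFM lists alone, 8 and 6 of OFM without dorsal and 0 of dorsal without OFM at HH30. Where regions with a peak in the upper 50% were kept and lists of all ranks searched, 156 were left. The first part had 5 of both dorsal lists alone, 5 and 8 of dorsal without OFM, 1 and 1 of OFM without dorsal and 65.6% in all 4 lists. The last part had 3 of both OFM lists alone, 4 and 9 of OFM without dorsal, 0 and 0 of dorsal without OFM and 74.4% in all 4 lists. The run of regions without dorsal HH34 shortened from 18 to 6 in both settings, and that without OFM HH34 from 13 to 5 and 2. Covered length and runs were chosen with their values in view. Depth limits how far a missing peak means missing signal, and this was not tested.

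No paired analysis was possible because each list pools its 3 libraries, and replicate values are not part of it. Leaving out replicates, gene distances and motif windows were not run.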
